A study of Rattus norvegicus with 36 samples.

Results

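Transcripts of 7 genes that bind, make, degrade or sense retinoids were followed in cultured rat ovarian granulosa cells treated with the pesticide metabolite HPTE: Crabp1, Crabp2, Cyp26b1, Rbp4, Aldh1a1, Aldh1a2 and Rarb. They were taken by gene symbol from the array platform's annotation, so they are 7 of 14217 genes and 8 of 31042 probe sets. Crabp2 and Cyp26b1 were chosen on measured values, since their levels had been seen to change on these same arrays. Their levels and differences are therefore given as a description, with no test, in every comparison. The other 5 genes were tested in each of 24 comparisons.

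Granulosa cells surround the oocyte in the ovarian follicle and make estradiol under follicle-stimulating hormone (FSH), whose receptor raises cAMP inside the cell. HPTE is the bis-hydroxy metabolite of methoxychlor, an organochlorine pesticide, and is known to bind estrogen receptors. Cells of immature Sprague-Dawley females aged 21 to 27 days were released by needle puncture, plated for 24 h with 5% serum and moved to serum-free medium. Androstenedione, the substrate of aromatase, was present in every group, at 0.1 µM by the series' design text and at 0.1 M by the sample descriptions. The cells then received FSH at 3 ng/ml, cAMP at 1 mM (in which chemical form the labels do not say) or no stimulus (basal), each with 0, 1, 5 or 10 µM HPTE for 48 h. Each of the 12 groups had 3 arrays, numbered 1 to 3 in the labels, 36 arrays in all. Nothing in the labels tells animals, cell pools and culture wells apart as the source of the 3 arrays, and p-values therefore measure only the spread between these samples, which may be technical.

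Vitamin A circulates as retinol on its carrier RBP4. In cells retinol is oxidised to retinal, and the ALDH1A enzymes oxidise retinal to retinoic acid, the active form. CRABP1 and CRABP2 bind retinoic acid in the cytosol, and CRABP2 is known to hand it to the nuclear retinoic acid receptors, of which RARB is encoded by a gene that is itself a classic retinoic acid target. The CYP26 enzymes hydroxylate retinoic acid and so end its action. In fetal gonads of the mouse, retinoic acid is known for its part in the start of meiosis, and CYP26B1 for removing it in the testis.

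The promoters of 3 genes are shown because the results turn on Crabp2 and Cyp26b1, and Rarb had the most calls of the 5 tested genes in the fit without the array number as a block (Aldh1a1 had the most with it). Each sequence runs from 250 bases before to 50 bases after 1 RefSeq transcript start per gene (build GRCr8), 5′ to 3′ on the gene's own strand. Other starts of a gene were not searched. The windows of Rarb and Aldh1a1 lie inside the RefSeq spans of these genes, chr15:10837252-11482037 and chr1:227426939-227579497. Windows were found for all 7 genes. Capitals mark the motif matches, and the Cyp26b1 window held none.
Crabp2, chr2:175714612-175714911, plus strand: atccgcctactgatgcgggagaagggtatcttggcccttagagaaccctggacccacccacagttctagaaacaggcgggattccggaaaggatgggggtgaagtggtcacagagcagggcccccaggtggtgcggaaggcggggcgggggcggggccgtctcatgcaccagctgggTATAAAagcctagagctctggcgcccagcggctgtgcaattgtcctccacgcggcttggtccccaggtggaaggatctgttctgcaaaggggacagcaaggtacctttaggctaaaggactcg
Cyp26b1, chr4:118616127-118616426, minus strand: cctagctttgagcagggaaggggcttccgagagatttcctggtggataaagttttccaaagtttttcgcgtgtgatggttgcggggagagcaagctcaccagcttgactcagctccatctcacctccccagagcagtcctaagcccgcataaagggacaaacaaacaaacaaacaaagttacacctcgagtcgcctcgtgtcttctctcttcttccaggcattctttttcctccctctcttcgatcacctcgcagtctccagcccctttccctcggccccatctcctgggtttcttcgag
Rarb, chr15:11336142-11336441, plus strand: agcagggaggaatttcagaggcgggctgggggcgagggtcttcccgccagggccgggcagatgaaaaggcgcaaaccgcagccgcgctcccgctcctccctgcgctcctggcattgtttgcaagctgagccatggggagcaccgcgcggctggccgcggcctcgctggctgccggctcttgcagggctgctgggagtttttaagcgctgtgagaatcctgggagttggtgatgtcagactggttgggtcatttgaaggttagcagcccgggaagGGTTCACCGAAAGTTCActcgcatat

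The letters searched, on both strands, were direct repeats of the hexamers AGGTCA or AGTTCA or GGGTCA or GGTTCA with a spacer of 1, 2 or 5 bases (the form bound by retinoic acid receptors), the cAMP response element TGACGTCA, the NR5A1 site CAAGGTCA and the TATA box TATAAA. These motifs can share letters, since CAAGGTCA contains AGGTCA. Of 27457 rat promoters of the same length, 0.251%, 0.16% and 0.375% held a repeat with a spacer of 1, 2 and 5 bases, 1.91% held TGACGTCA, 1.48% held CAAGGTCA and 14.3% held TATAAA. Rarb carried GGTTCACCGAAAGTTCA, a repeat with a spacer of 5, at 25 to 41 bases after the start used, which lies inside the gene's span. Crabp2 carried TATAAA at 73 to 68 bases before its start, and Rbp4 carried it at 50 to 45 bases before. No searched letters stood in the windows of Crabp1, Cyp26b1, Aldh1a1 and Aldh1a2. A match is only a match of letters, and the windows are short.

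Some libraries stand apart, and this touches the values below. Number 2 of the FSH cells without HPTE and number 2 of the cAMP cells without HPTE looked exchanged: Cyp19a1, the aromatase gene, stood at 11.49, 7.48 and 11.46 (log2 intensity) in numbers 1, 2 and 3 of the FSH cells and at 7.62, 11.01 and 6.46 in those of the cAMP cells, against 5.11, 4.51 and 4.50 in basal cells. For Lhcgr, the luteinizing hormone receptor gene, number 2 was likewise the lowest of the FSH arrays and the highest of the cAMP arrays. The labels were kept, and results resting on these arrays are also given without both of them where that changed a call or the sign or moved the value by over 1.5 times, and for some others. Number 3 arrays of all groups had a log2 ratio of 3′ to 5′ Gapdh signal of 0.767 to 1.07, against 1.61 to 2.40 on numbers 1 and 2, so this ratio, a measure of RNA quality and labelling, went with the array number. Since deviations from group means also went with the number, each result is given with the number as a block where this changes the call. A probe set is called dim here when its mean stood among the lowest 33.3% of all probe sets in every one of the 12 groups. Of 15 granulosa markers 14 were measured and none was dim. Of the measured markers of other cells, 1 of 10 for theca and stroma and 4 of 10 for macrophages and leukocytes were dim. So were 2 of 7 for endothelium, 1 of 5 for oocytes and 2 of 8 for surface epithelium. Most markers of each list were thus not dim, so this does not set granulosa cells apart. Fshr was not analysed here. Array medians lay between 65.8 and 73.7 intensity units.

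Crabp2, the cytosolic protein that carries retinoic acid to its receptors, had its highest levels in cells given FSH or cAMP, and HPTE at 5 and 10 µM went with much lower levels in FSH cells but not in cAMP cells. Without HPTE the 3 FSH arrays read 12.02, 11.02 and 12.83 and the cAMP arrays 10.73, 12.11 and 11.08, against 7.05, 6.73 and 6.51 in basal cells (log2 intensity, numbers 1 to 3). Every stimulated array was above every basal array, as groups lay apart without overlap for 17.9% (FSH) and 16.3% (cAMP) of all probe sets. The difference was 5.19 ± 0.53 log2 units for FSH (36.6-fold, SE from the fit, n = 3 against 3) and 4.54 ± 0.53 for cAMP (23.3-fold). Leaving out the arrays that looked exchanged gave 5.66 and 4.14.

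In FSH cells Crabp2 stood lower at the higher doses. At 1 µM the FSH arrays read 12.11, 10.58 and 12.62, at 5 µM 10.22, 8.19 and 10.73, and at 10 µM 9.08, 8.13 and 9.0. At 1 µM they overlapped the FSH arrays without HPTE, and at 5 and 10 µM they did not (17.2% and 19.4% of all probe sets did not overlap there). The differences from FSH alone were -0.19, -2.24 and -3.22 log2 units at 1, 5 and 10 µM (SE 0.53 each), or 4.73-fold lower at 5 µM and 9.30-fold lower at 10 µM, and all 3 same-numbered pairs were lower at both of these doses. At 5 µM array number 2 was the lowest of the FSH cells, and without it the difference was -1.48. Without the arrays that looked exchanged, the differences at 1, 5 and 10 µM were -0.65, -2.71 and -3.69.

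With cAMP the level of Crabp2 was nearly flat across the doses. The cAMP arrays read 11.26, 11.29 and 12.01 at 1 µM, 10.86, 11.41 and 12.14 at 5 µM, and 10.94, 11.01 and 11.59 at 10 µM, and at each dose they overlapped those without HPTE. The differences from cAMP alone were 0.21, 0.16 and -0.13 at 1, 5 and 10 µM (SE 0.53), and 0.61, 0.57 and 0.27 (SE 0.55) when the arrays that looked exchanged were left out. In basal cells HPTE went with a small difference the other way. The basal arrays read 6.86, 6.41 and 6.45 at 1 µM, 6.89, 7.44 and 6.84 at 5 µM and 7.97, 7.31 and 7.47 at 10 µM. Only at 10 µM did they all lie above the untreated ones, by 0.82 ± 0.53 (1.77-fold), while 9.62% of all probe sets did not overlap there.

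Set against basal cells at the same dose, the excess was smaller at 5 and 10 µM with FSH and stayed large with cAMP. FSH cells exceeded basal cells by 5.20, 2.66 and 1.16 log2 units at 1, 5 and 10 µM HPTE, and cAMP cells by 4.95, 4.41 and 3.60 (SE 0.53). At 5 µM the FSH value rests in part on the low array number 2, without which it was 3.42. Set directly against cAMP cells, FSH cells differed by 0.65 and 0.25 at 0 and 1 µM, where the arrays overlapped, and by -1.76 and -2.44 at 5 and 10 µM, where every FSH array was lower (17.0% and 19.0% of all probe sets did not overlap). The value without HPTE was 1.52 without the arrays that looked exchanged, and the value at 5 µM was -0.99 without FSH array number 2. The effect of 10 µM HPTE in FSH cells minus that in basal cells was -4.04 ± 0.74, and minus that in cAMP cells -3.09 ± 0.74. Leaving out the arrays that looked exchanged gave -4.51 and -3.96.

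Granulosa cell markers moved alongside Crabp2. The 14 markers summed to 48511 to 66002 intensity units in FSH cells and 50307 to 57410 in cAMP cells without HPTE, against 29909 to 32412 in basal cells. For FSH 9 were called higher and 1 lower, beside 3.88% and 4.18% of all probe sets. In FSH cells at 10 µM HPTE the markers summed to 33758 to 38758, against 48511 to 66002 without HPTE. There 1 was called higher and 8 lower, beside 4.51% and 3.95% of all probe sets. Both sets of calls use the FSH arrays without HPTE, with opposite sign. Of the lists for other cells, 2 of 10 theca and stroma markers, 1 of 10 macrophage and leukocyte markers and 0 of 7 endothelial, 5 oocyte and 8 surface epithelium markers were called for FSH without HPTE, beside 8.06% of all probe sets. At 10 µM HPTE in FSH cells 2 theca and stroma markers and 1 macrophage and leukocyte marker were called, beside 8.45%. In such bulk samples fewer cells of a type and less RNA of these genes per cell, Cyp19a1 among them, cannot be told apart. The part of these shifts in the levels of Crabp2 was not tested.

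**Figure D1:**
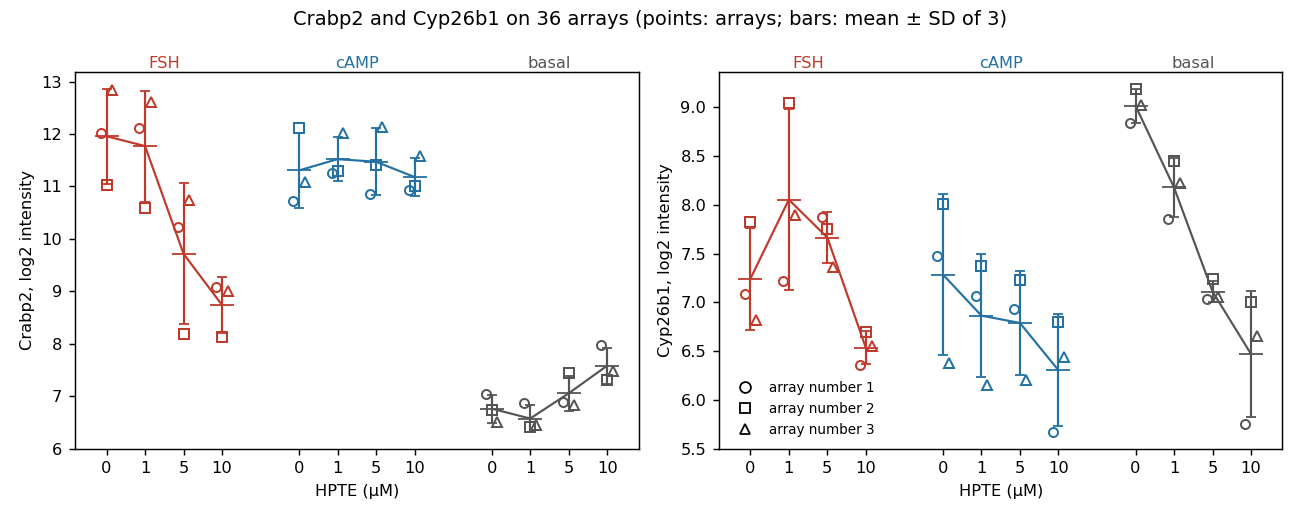
Log2 intensity of Crabp2 and Cyp26b1 on each of the 36 arrays by stimulus (FSH, cAMP, basal) and HPTE dose in µM; points are arrays with a symbol for each array number, horizontal bars and whiskers are the mean and SD of 3. Crabp2 in FSH cells lies at 8.13 to 9.08 at 10 µM, below all cAMP arrays, and Cyp26b1 in basal cells goes down from dose to dose.

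By group means, Crabp2 was ordered as follows. FSH cells without HPTE came first at 11.96 ± 0.91 (SD, n = 3), then FSH at 1 µM at 11.77 ± 1.06, then cAMP at 1, 5, 0 and 10 µM at 11.52, 11.47, 11.31 and 11.18. FSH at 5 µM (9.71 ± 1.35) and FSH at 10 µM (8.74 ± 0.53) stood in the middle. Basal cells at 10, 5, 0 and 1 µM closed the order at 7.58, 7.06, 6.76 and 6.57. Only at 2 steps did neighbours in this order not overlap: between cAMP at 10 µM and FSH at 5 µM, and between FSH at 10 µM and basal at 10 µM.

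Crabp1, the other cytosolic retinoic acid binding protein, showed no such pattern on its low probe set. Its arrays lay between 4.94 and 5.80 over all 36, and its group means between 5.15 (cAMP at 5 µM) and 5.61 (basal at 10 µM). All these values were below the median of every array, so low signal limits what this gene could show. In 24 comparisons its differences ran from -0.37 to 0.19, none passed the test, and the lowest adjusted p was 0.542. Rbp4, the retinol carrier that the liver secretes, lay between 4.54 and 5.09 on all arrays and was dim. Its 24 differences ran from -0.26 to 0.14 with a lowest adjusted p of 0.560. With the number as a block neither gene was called either, with lowest adjusted p of 0.286 for Crabp1 and 0.327 for Rbp4.

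Cyp26b1, which hydroxylates and so removes retinoic acid, had its highest level in untreated basal cells, and HPTE, FSH and cAMP each went with less of it. Basal arrays read 8.84, 9.19 and 9.02 (log2 intensity) at 0 µM, 7.85, 8.45 and 8.23 at 1 µM, 7.04, 7.24 and 7.06 at 5 µM, and 5.76, 7.0 and 6.66 at 10 µM. No array at any dose reached the lowest untreated one, while 2.82%, 6.23% and 9.62% of all probe sets did not overlap at 1, 5 and 10 µM. The differences from untreated basal cells were -0.84, -1.90 and -2.54 log2 units at 1, 5 and 10 µM (SE 0.41), which is 1.79-fold, 3.74-fold and 5.83-fold lower, and at each dose all 3 same-numbered pairs were lower.

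Stimulation without HPTE gave a level close to that of basal cells at 5 µM HPTE. Cyp26b1 read 7.08, 7.82 and 6.82 in FSH cells and 7.47, 8.0 and 6.38 in cAMP cells, against 8.84, 9.19 and 9.02 in basal cells, with no overlap for either stimulus (17.9% of all probe sets did not overlap for FSH and 16.3% for cAMP). The difference from basal was -1.77 ± 0.41 for FSH cells (3.42-fold lower) and -1.73 ± 0.41 for cAMP cells (3.32-fold lower). They were -2.06 and -2.09 when the arrays that looked exchanged were left out.

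On top of a stimulus HPTE went with smaller differences in Cyp26b1. FSH arrays read 7.22, 9.05 and 7.89 at 1 µM, 7.87, 7.75 and 7.37 at 5 µM, and 6.36, 6.69 and 6.55 at 10 µM, which is 0.81, 0.42 and -0.71 from FSH alone. Only the 10 µM arrays lay wholly below FSH alone, where 19.4% of all probe sets did not overlap. Leaving out the arrays that looked exchanged gave 1.1, 0.71 and -0.42 at 1, 5 and 10 µM. cAMP arrays read 7.06, 7.37 and 6.16 at 1 µM, 6.93, 7.23 and 6.20 at 5 µM, and 5.68, 6.80 and 6.44 at 10 µM, and the differences from cAMP alone were -0.42, -0.50 and -0.98 with overlap at every dose. These became -0.06, -0.14 and -0.62 without the arrays that looked exchanged. At 10 µM the 3 stimuli ended close together, at 6.53 ± 0.17 with FSH, 6.30 ± 0.57 with cAMP and 6.47 ± 0.64 without a stimulus. The effect of 10 µM HPTE in FSH cells minus that in basal cells was 1.84 ± 0.59, and in cAMP cells minus basal cells 1.56 ± 0.59, or 2.13 and 1.92 without the arrays that looked exchanged.

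Between FSH and cAMP cells Cyp26b1 differed by -0.04 without HPTE (0.03 without the arrays that looked exchanged), by 1.19 at 1 µM, by 0.87 at 5 µM and by 0.23 at 10 µM (SE 0.41). Only at 5 µM did the FSH and cAMP arrays not overlap, as for 17.0% of all probe sets. In the order of group means, untreated basal cells (9.01 ± 0.17) stood clear of the next group, basal cells at 1 µM (8.18 ± 0.30), and every later neighbour overlapped down to cAMP at 10 µM. A further, dimmer probe set of Cyp26b1 ran the same way in basal cells with smaller sizes: -0.14, -0.41 and -0.59 at 1, 5 and 10 µM HPTE (SE 0.14). Of the 7 genes followed here, the other 6 had a single probe set each.

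Aldh1a1 encodes a retinal dehydrogenase that makes retinoic acid, and its probe set was bright on all arrays, between 10.63 and 12.71. Group means lay within 1.27 log2 units, from 12.47 ± 0.24 in untreated basal cells to 11.20 ± 0.39 in cAMP cells at 1 µM HPTE, and every neighbour in the order overlapped. In 1 of 24 comparisons it passed the test. That was cAMP against basal at 1 µM HPTE, where 8.71% of all probe sets were called: 11.55, 11.28 and 10.78 in cAMP cells, against 12.39, 12.51 and 12.03 in basal cells, a difference of -1.10 ± 0.31 (2.15-fold lower, limma adjusted p = 0.0220). The call was lost without basal array number 1, 2 or cAMP array number 2 or 3 at that dose (adjusted p of 0.0753, 0.0983, 0.0521 and 0.152), without all number 1 or all number 2 arrays (0.147 and 0.281), and under quantile normalization (0.0539).

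The spread of Aldh1a1 within groups followed the array number, with number 3 the lowest array in each of the 12 groups, and a fit with the number as a block called 9 of 24 comparisons, cAMP against basal at 1 µM among them (17.9% of all probe sets). Without HPTE Aldh1a1 read 12.21, 11.54 and 11.22 in FSH cells and 11.85, 11.88 and 11.35 in cAMP cells, against 12.49, 12.71 and 12.22 in basal cells. All stimulated arrays were below all basal arrays, a separation seen for 17.9% (FSH) and 16.3% (cAMP) of all probe sets. These differences were -0.81 ± 0.31 for FSH (limma adjusted p = 0.137, and 0.000451 with the block) and -0.78 ± 0.31 for cAMP (0.172, and 0.000770 with the block), beside 8.06% and 7.18% of all probe sets called without the block and 16.1% and 15.2% with it. At 5 µM HPTE the difference of cAMP from basal cells was -0.90 ± 0.31 (0.0800, and 0.000119 with the block, beside 17.0% called with it).

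In basal cells at 10 µM HPTE Aldh1a1 read 11.61, 11.95 and 11.16, against 12.49, 12.71 and 12.22 without HPTE. The arrays did not overlap (as for 9.62% of all probe sets), all 3 pairs were lower, and the difference was -0.90 ± 0.31 (1.86-fold lower, limma adjusted p = 0.299, and 0.000761 with the block, beside 1.02% of probe sets called without the block and 3.41% with it). In cAMP cells at 10 µM the arrays read 12.25, 12.07 and 11.77, and all 3 pairs were higher than cAMP alone, by 0.34 ± 0.31 on average, which did not pass the test (adjusted p = 0.926, and 0.283 with the block). FSH cells differed from cAMP cells by 0.87 and 0.75 at 1 and 5 µM HPTE and by -0.77 at 10 µM, each called only with the block (limma adjusted p of 0.00276, 0.00132 and 0.00121 with it, and 0.369, 0.223 and 0.230 without it). With the block 2.52%, 12.8% and 11.1% of all probe sets were called there. The effect of 10 µM HPTE in cAMP cells minus that in basal cells was 1.24 ± 0.44 (0.881, and 0.00435 with the block, beside 0.129% and 0.57% of probe sets). In that comparison not every pair of same-numbered arrays deviated together.

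Markers of macrophages and leukocytes are given beside Aldh1a1 because their summed level was also lower in cAMP cells with HPTE, so this list was picked for its match. The 10 markers, 4 of them dim, summed to 460 to 1671 intensity units in FSH cells and 492 to 1164 in cAMP cells without HPTE, against 846 to 2316 in basal cells, with overlap. At 1 µM HPTE they summed to 416 to 512 in cAMP cells, against 874 to 2380 in basal cells, with 2 of 10 markers called lower (8.71% of all probe sets were called). The ranges were also apart at 5 µM, 485 to 679 in cAMP cells against 1030 to 2481 in basal cells, and at 10 µM, 581 to 1009 against 1044 to 2586. Only 1 of 10 markers at 5 µM and 0 of 10 at 10 µM were called lower, beside 8.08% and 6.18% of all probe sets. A sum weighs the brightest markers most. Of the other lists, cAMP against basal at 1 µM called 8 of 14 granulosa markers higher and 1 lower, and 1 of 10 theca and stroma markers lower. For endothelium, oocyte and surface epithelium 0 were called there. At 10 µM Aldh1a1 averaged 12.03 in cAMP cells, against 11.58 in basal cells (0.46 ± 0.31, adjusted p = 0.623). The part of macrophages and leukocytes, or of any other cells, in the result was not tested.

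Aldh1a2, the enzyme that makes most retinoic acid in the embryo, was low and nearly flat. It lay between 4.91 and 5.65 on all arrays, its 24 differences ran from -0.26 to 0.24, none passed the test, and the lowest adjusted p was 0.620. With the number as a block it was again called in 0 of 24 comparisons. All its values were below the median of every array, so low signal limits what this gene could show.

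**Figure D2:**
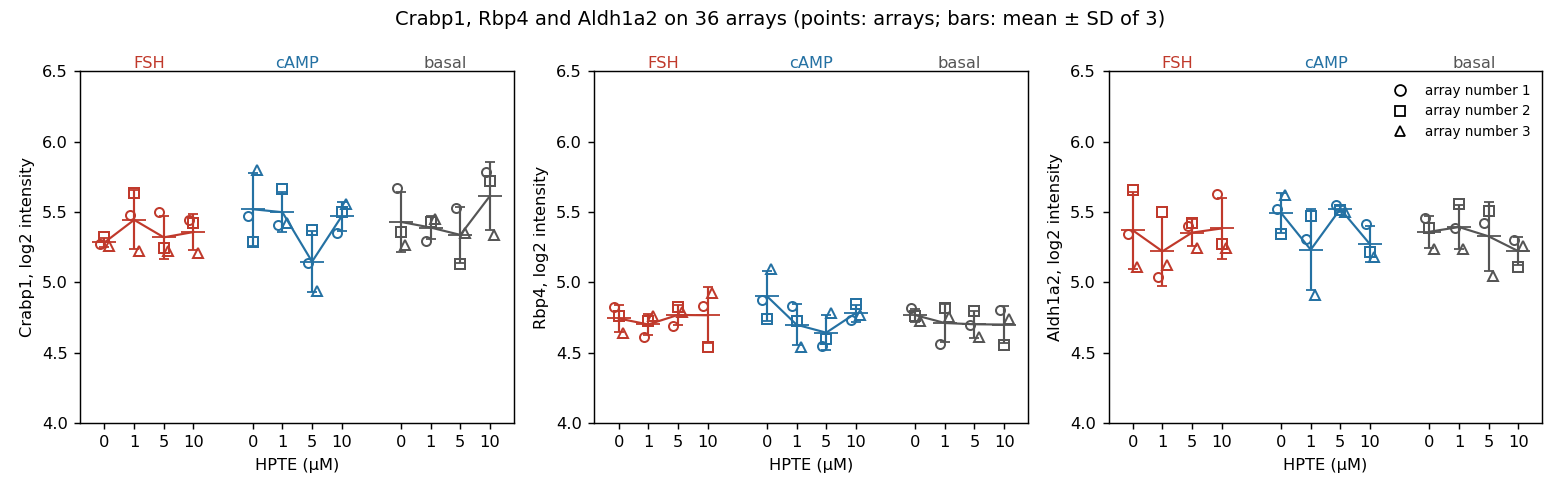
Log2 intensity of Crabp1, Rbp4 and Aldh1a2 on each of the 36 arrays by stimulus and HPTE dose in µM; points are arrays, bars and whiskers the mean and SD of 3. All values lie between 4.54 and 5.80, and no comparison of these genes passed the test.

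Rarb, the retinoic acid receptor whose searched window carries the repeat printed above, was low in every group but had its highest level in FSH cells. Without HPTE it read 5.24, 4.74 and 5.53 in FSH cells and 4.49, 4.77 and 4.56 in cAMP cells, against 4.51, 4.14 and 4.39 in basal cells. FSH arrays were all above basal arrays, by 0.82 ± 0.19 (1.77-fold, limma adjusted p = 0.00486). In this comparison 17.9% of all probe sets did not overlap and 8.06% were called. The difference was 1.04 (0.000667, beside 8.11% called) without the arrays that looked exchanged. cAMP cells differed from basal cells by 0.26 ± 0.19 (0.633).

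At 5 and 10 µM HPTE Rarb fell in FSH cells. FSH arrays read 5.24, 4.69 and 4.56 at 1 µM, 4.39, 4.62 and 4.21 at 5 µM, and 4.34, 4.51 and 4.47 at 10 µM. At 5 and 10 µM every array was below every FSH array without HPTE, while 17.2% and 19.4% of all probe sets did not overlap there. The differences were -0.34 ± 0.19 at 1 µM (limma adjusted p = 1.00, and -0.55 without the arrays that looked exchanged, 0.637), -0.76 ± 0.19 at 5 µM (1.69-fold lower, 0.0117, beside 6.54% of probe sets called) and -0.73 ± 0.19 at 10 µM (1.65-fold lower, 0.0134, beside 8.45% called). When the arrays that looked exchanged were left out, the differences at 5 and 10 µM were -0.98 (0.00162) and -0.94 (0.00191), beside 6.99% and 8.28% called.

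These calls of Rarb shared the FSH arrays without HPTE and depended on single arrays. All 3 were lost without FSH array number 3 at 0 µM, with adjusted p of 0.0658 against basal, 0.128 at 5 µM and 0.135 at 10 µM. The call at 10 µM was also lost without number 1 of the FSH arrays at 0 or at 10 µM (0.0523 and 0.0603), and that at 5 µM without number 3 of the FSH arrays at 5 µM (0.0752). All 3 were lost without all number 1 or all number 3 arrays (adjusted p of 0.0968 to 0.305). In basal and cAMP cells no dose of HPTE gave a call, with differences from 0.09 to 0.25 in basal cells and from -0.02 to 0.11 in cAMP cells (0.06 to 0.19 without the arrays that looked exchanged).

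Whether Rarb responded to 10 µM HPTE differently in FSH cells was not settled by the test: FSH minus basal was -0.82 ± 0.27 (limma adjusted p = 0.141) and FSH minus cAMP -0.71 ± 0.27 (0.286). Without the arrays that looked exchanged these were -1.03 (0.0251) and -1.0 (0.0423), and FSH cells without HPTE then exceeded cAMP cells by 0.86 (0.0317), against 0.56 (1.00) with them. In these comparisons 3.41%, 3.62% and 2.19% of probe sets were called without those arrays, and 2.17%, 1.88% and 0% with them. The probe set was dim by the definition above.

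**Figure D3:**
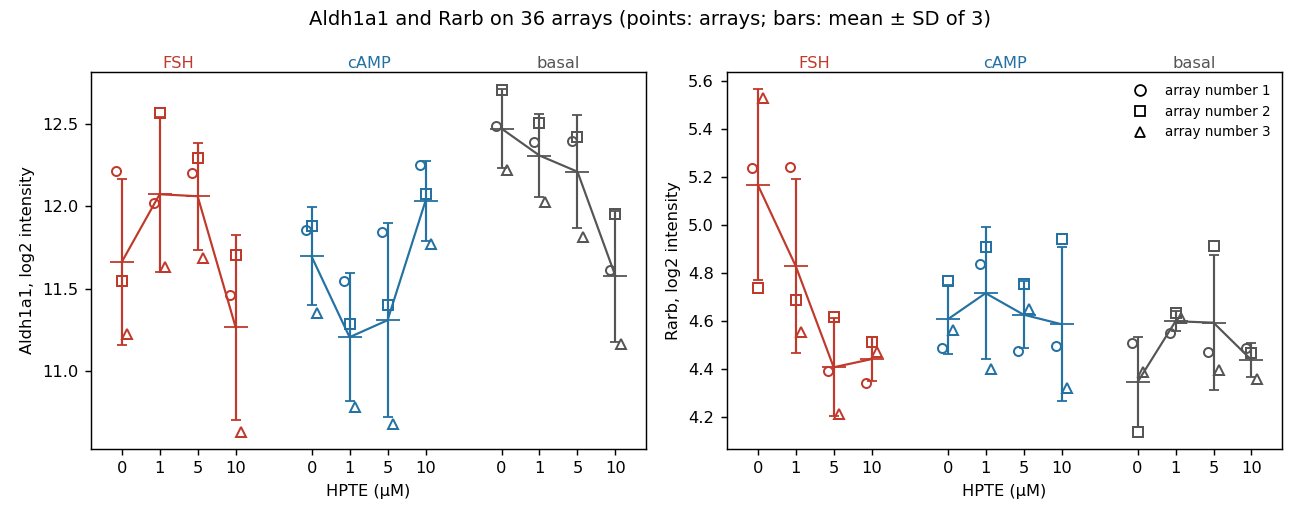
Log2 intensity of Aldh1a1 and Rarb on each of the 36 arrays by stimulus and HPTE dose in µM; points are arrays with a symbol for each array number, bars and whiskers the mean and SD of 3. Aldh1a1 is highest in basal cells at 0 µM and lowest on the number 3 array of each group. Rarb in FSH cells without HPTE lies at 4.74 to 5.53, above the basal arrays without HPTE (17.9% of all probe sets did not overlap there).

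The wider pathway was read from a list of 63 other retinoid genes, of which 54 were measured: carriers and uptake, enzymes of retinol and retinal, retinoic acid breakdown, receptors and their partners, and genes known to respond to retinoic acid. FSH without HPTE called 6 of 54 higher and 4 lower, and cAMP 4 higher and 4 lower, which is 18.5% and 14.8% of the list beside 8.06% and 7.18% of all probe sets (3.88% higher and 4.18% lower with FSH, 2.69% and 4.49% with cAMP). The list's median difference was 0.01 for FSH and 0.08 for cAMP, against -0.01 and 0.04 over all probe sets. Calls ran both ways. The list and all probe sets are not alike, so a higher share here does not set the pathway apart. Each listed gene was read on its probe set of highest mean, and the list was chosen with earlier results known. All probe sets include 8354 dim ones and 9780 without a symbol. This holds for each such share below. With the number as a block 14 of 54 were called for FSH and 10 for cAMP, beside 16.1% and 15.2% of all probe sets.

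Among uptake genes, Scarb1, the high-density lipoprotein receptor that also takes up carotenoids, rose by 3.07 ± 0.51 with FSH (limma adjusted p = 0.000136) and by 2.24 ± 0.51 with cAMP (0.00450), each call being lost without all number 1 arrays (0.0702 and 0.165). Lpl, the lipase that frees retinyl esters from lipoproteins, fell by 1.41 ± 0.27 with FSH (0.000622, and 0.0534 without all number 2 arrays) and by 1.68 ± 0.27 with cAMP (7.88e-05). Nrip1, a corepressor of retinoic acid and steroid receptors, rose by 0.83 ± 0.12 with FSH (2.68e-05) and by 0.93 ± 0.12 with cAMP (5.13e-06) and kept both calls without any single array. Meis1, a homeobox gene that responds to retinoic acid, fell by 1.57 ± 0.26 with FSH (9.73e-05) and by 1.08 ± 0.26 with cAMP (0.00637), the call for cAMP being lost without cAMP array number 2 (0.0713) or all number 3 arrays (0.0672). Aldh1a3, a further retinal dehydrogenase, rose by 1.40 ± 0.32 with FSH (0.00391), a call lost without FSH array number 1 (0.0598). The FSH calls of Rxrb, Rora, Tgif1 and Rarres2 and the cAMP calls of Rora, Tgif1 and Rarres2 were each lost without at least 3 single arrays of the 6, and that of Bhlhe40 with FSH without FSH array number 2 (0.0799) or both arrays that looked exchanged (0.0865). The FSH call of Bhlhe40 was also lost without all arrays of any 1 number (limma adjusted p of up to 0.187).

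Stimulus calls on this list were few at the higher doses with FSH and stayed at 8 or more with cAMP. FSH against basal called 2, 0 and 0 of 54 at 1, 5 and 10 µM HPTE, beside 3.03%, 0.00322% and 0% of all probe sets, and the unadjusted p was under 0.05 for 7, 1 and 0 genes. With the number as a block 5 were called at 1 µM, beside 8.02%. cAMP against basal called 11, 8 and 8, beside 8.71%, 8.08% and 6.18%. Dhrs3, a retinal reductase that responds to retinoic acid, was among these, with 1.51 ± 0.27 at 5 µM (limma adjusted p = 0.000283) and 1.35 ± 0.27 at 10 µM (0.00125, and 0.0503 without all number 1 arrays). Scarb1 rose in cAMP cells at 10 µM by 3.79 ± 0.51 (8.66e-06).

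In FSH cells HPTE changed 0 of 54 genes at 1 µM (6 at an unadjusted p under 0.05), 8 at 5 µM (1 higher, 7 lower) and 9 at 10 µM (3 higher, 6 lower). Of all probe sets 0.00644%, 6.54% and 8.45% were called, which at 5 µM is 3.45% higher and 3.08% lower and at 10 µM 4.51% higher and 3.95% lower. The block called 15 genes at 10 µM, beside 17.2%. These differences and those of FSH from basal cells share the FSH arrays without HPTE, with opposite sign, so opposite directions are partly built in. At 10 µM Scarb1 fell by 3.03 ± 0.51 (limma adjusted p = 0.000158), Aldh1a3 by 1.51 ± 0.32 (0.00187) and Nrip1 by 1.25 ± 0.12 (5.91e-08), and Bhlhe40, a transcription factor gene that responds to retinoic acid, rose by 0.96 ± 0.17 (0.000270). These 4 calls were kept without any single array, and that of Scarb1 was lost without all number 1 arrays (0.0590). Meis1 rose by 1.11 ± 0.26 (0.00423) and lost the call without FSH array number 1 at 0 µM (0.0527), all number 1 (0.108) or all number 3 arrays (0.246). Aox1, an aldehyde oxidase that can oxidise retinal, fell by 0.92 ± 0.23 (0.00892) and lost the call without FSH array number 3 at 0 µM (0.106), all number 1 (0.152) or all number 3 arrays (0.192). The calls of Rora, Rxrb and Retsat at 10 µM were each lost without at least 2 single arrays.

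In basal cells 0 of 54 were called at 1 and 5 µM, with 1 and 3 at an unadjusted p under 0.05, and 2 at 10 µM, beside 0%, 0.0129% and 1.02% of all probe sets. Lpl fell by 1.93 ± 0.27 (limma adjusted p = 0.000120) and Nrip1 by 0.60 ± 0.12 (0.00808), the call of Nrip1 being lost without basal array number 2 at 0 µM (0.0694) or number 3 at 10 µM (0.0656), or all arrays of any 1 number (0.0740 to 0.398). The block called 5 at 10 µM, beside 3.41% of all probe sets with it. In cAMP cells 0 were called at 1 and 5 µM, with 1 and 8 at an unadjusted p under 0.05, and 3 at 10 µM, beside 0%, 0.00322% and 1.69%: Lpl fell by 1.60 ± 0.27 (0.000711), Fabp5, a fatty acid binding protein that also carries retinoic acid, rose by 1.37 ± 0.26 (0.00207, and 0.203 without all number 1 arrays), and Mdk rose by 0.87 ± 0.22 (0.0353), lost without any of 4 single arrays or without both arrays that looked exchanged (0.148). With the number as a block cAMP cells at 10 µM had 7 higher and 2 lower, beside 5.83% of all probe sets. At 5 µM the block called 1 higher, and the share over all probe sets with it was not taken.

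FSH against cAMP called 0 of 54 without HPTE and at 1 µM (2 and 7 at an unadjusted p under 0.05), 8 at 5 µM and 7 at 10 µM, beside 0%, 0.409%, 5.59% and 4.76% of all probe sets. The block called 3 at 1 µM and 13 at 5 µM, beside 2.52% and 12.8% of all probe sets with it. At 10 µM the called differences were -3.25 ± 0.51 for Scarb1, -1.57 ± 0.26 for Fabp5, -1.50 ± 0.27 for Dhrs3, -1.29 ± 0.23 for Aox1 and -1.0 ± 0.12 for Nrip1, lower in FSH cells, and 1.49 ± 0.27 for Lpl and 1.70 ± 0.39 for Egr1, higher in FSH cells. All 7 calls were kept without any single array, and those of Fabp5 without all number 1 arrays (0.0511) and Egr1 without all number 2 arrays (0.175) were lost. The remaining breakdown genes, Cyp26a1 and Cyp2s1, gave 1 call over all of these comparisons, for Cyp2s1 in cAMP cells at 1 µM HPTE (0.62 ± 0.20, adjusted p = 0.0479), and it was lost without 5 of 6 single arrays.

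Between stimuli, the effect of 10 µM HPTE was called different for 3 of 54 genes in FSH minus basal cells, 0 in cAMP minus basal cells (5 at an unadjusted p under 0.05) and 5 in FSH minus cAMP cells, beside 2.17%, 0.129% and 1.88% of all probe sets. The block called 7, 2 and 8 of 54, beside 6.77%, 0.57% and 5.95%.

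**Figure D4:**
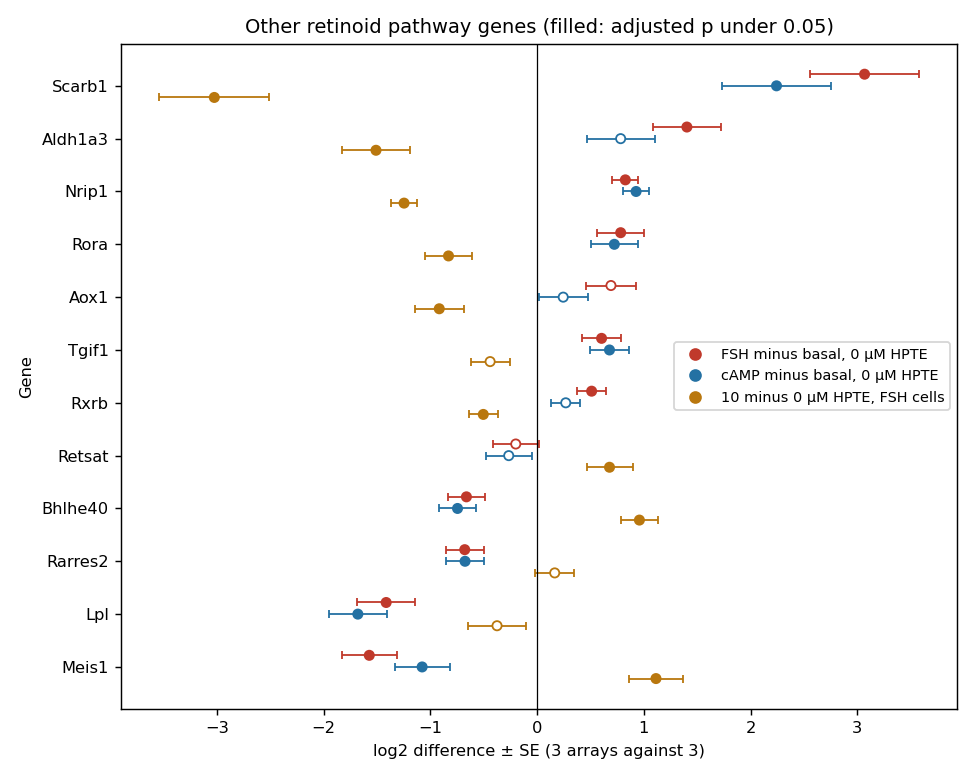
Log2 difference ± SE (n = 3 against 3) of 12 other retinoid pathway genes for FSH minus basal and cAMP minus basal at 0 µM HPTE and for 10 minus 0 µM HPTE in FSH cells; filled points passed an adjusted p under 0.05. Scarb1, Aldh1a3, Nrip1, Rxrb and Rora lie to the right with FSH and to the left with HPTE in FSH cells, and Meis1 and Bhlhe40 do the reverse. Only genes called in any of the plotted comparisons are shown. These differences share the FSH arrays without HPTE, with opposite sign, so opposite directions are partly built in.

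The genes whose 12 group means ran most like those of Crabp2 (Pearson r over 12 groups, 2048 genes with group means spanning at least 1 log2 unit) were Hsd3b1 (r = 0.994), Tmem86a (0.984), Sgk1 (0.981), Id3 (0.977) and Mmd2 (0.976). Hsd3b1 encodes the steroid dehydrogenase that makes progesterone. Its mean was 13.18 with FSH, 11.13 with FSH and 10 µM HPTE, 13.10 with cAMP and 13.17 with cAMP and 10 µM HPTE, against 9.76 in basal cells. Cyp26b1 ran most like Tk1 (0.922), Fgf18 (0.919), Sult1a1 (0.901), Exph5 (0.893) and Clec2d2l2 (0.884). Tk1 encodes the thymidine kinase of dividing cells, and its basal means were 8.70, 8.56, 8.15 and 7.39 at 0, 1, 5 and 10 µM. These genes share all libraries with Crabp2 and Cyp26b1, so the values only describe these 36 arrays. The group means of Crabp2 and Cyp26b1 themselves had an r of -0.342.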

How the data were processed

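Total RNA (40 ng per sample) from cultured rat granulosa cells was amplified with the NuGEN Ovation system and put on Affymetrix Rat Genome 230 2.0 arrays, per the labels' protocols. Each array's deposited column holds linear intensity, normalized and summarised per probe set by the authors with RMA, per the submitters' processing notes, while the series' design text names ArrayAssist. The sources used here do not state the software versions or whether all arrays were normalized in 1 run. RMA draws each array to 1 distribution, so a shift shared by all genes would not show.

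The log2 of each intensity was taken here. Of 31099 probe sets, 57 controls were set aside and 31042 were tested with no filter on level. 20826 had 1 symbol, 436 several and 9780 none. For each gene the probe set of the highest mean stood for it. limma 3.58.1 (R 4.3.3) fitted 12 group means to 36 arrays, with 24 residual degrees of freedom. In each of 24 comparisons p-values were two-sided and adjusted by Benjamini-Hochberg over all probe sets, with an adjusted p under 0.05 as a call. A fold is 2 to the size of the log2 difference. An array has no count depth, and 3 arrays a group limit the precision. The fit was tested on simulated data with independent noise on each array. That simulation held no array-number effect and no exchanged arrays, so it does not check the fit under those conditions.

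The members, the pathway list and the marker lists were chosen with earlier results of these data known, and Crabp2 and Cyp26b1 for their changes. Any pathway gene called in a counted comparison could be named, and the nearest genes were the 5 of highest Pearson r. Marker lists covered granulosa, theca and stroma, macrophages and leukocytes, endothelium, oocyte and surface epithelium.

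The array numbers of the labels were checked for pairing: over 198 same-numbered pairs of arrays from different groups the deviations from group means had a median correlation of 0.510, against -0.423 over 396 pairs of different numbers. Deviations cancel out within a group, so the negative value follows in part from the positive one. The number also went with the 3′ to 5′ ratio, so the check cannot tell a shared cell source from shared RNA quality or labelling. Every same-numbered pair was above 0.1 in 21 of 24 comparisons, in which the numbers were taken to pair the samples, and not in FSH against cAMP at 0 µM and the effects of 10 µM HPTE in cAMP minus basal and FSH minus cAMP cells. Alternatives were this block, quantile normalization, leaving out 8354 dim probe sets (22688 were then tested), a variance trend, a pseudocount of 16, the probe set of largest variance, leaving out arrays, and leaving out the arrays that looked exchanged. That last setting together with the block was added after seeing the data.

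Promoter sequences and gene positions came from RefSeq (GRCr8). Probe sequences and proteins were not used here.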

Additional observations from a re-analysis of the deposited data

Results flagged for a closer look

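The effect of 10 µM HPTE differed between stimuli for 7 of 54 pathway genes by limma's interaction term, 3 in FSH minus basal cells (2.17% of all probe sets were called), 0 in cAMP minus basal cells (0.129%) and 5 in FSH minus cAMP cells (1.88%), Nrip1 being in both. In FSH cells minus cAMP cells it was -4.07 ± 0.73 for Scarb1 (adjusted p = 0.00150), -1.88 ± 0.36 for Fabp5 (0.00291), -1.74 ± 0.33 for Aox1 (0.00230), -1.68 ± 0.38 for Dhrs3 (0.0142) and -0.90 ± 0.17 for Nrip1 (0.00305). These 5 calls were kept without any single array, and each was lost without all number 1 arrays, with adjusted p of 0.215 for Scarb1, 0.297 for Fabp5, 0.15 for Aox1, 0.121 for Dhrs3 and 0.199 for Nrip1. Without all number 3 arrays Scarb1 (0.115), Fabp5 (0.0579) and Aox1 (0.318) lost theirs too, as did Dhrs3 without all number 2 arrays (0.278). Without the arrays that looked exchanged Dhrs3 lost its call (-1.40, adjusted p = 0.0707).

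In FSH cells minus basal cells the same term was 1.56 ± 0.38 for Lpl (adjusted p = 0.0242), 1.44 ± 0.36 for Meis1 (0.0288) and -0.64 ± 0.17 for Nrip1 (0.0445). These were lost without 7, 9 and 10 of the 12 single arrays, with adjusted p of up to 0.0889, 0.109 and 0.16. With the array number as a block, which was taken to pair the samples in this comparison, the adjusted p were 0.000909, 0.00941 and 0.00759. The block also called Scarb1 (-2.52, adjusted p = 0.0669 without and 0.00651 with it), Aldh1a3 (-1.49, 0.0900 and 0.00688), Rxrb (-0.69, 0.0523 and 0.0204) and Tgif1 (-0.65, 0.299 and 0.0176). When the arrays that looked exchanged were left out, Lpl (0.0529) and Nrip1 (0.0765) lost their calls, while Scarb1 (-3.23, 0.00294) and Aldh1a3 (-1.80, 0.0251) gained one.

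Crabp2 was lower at 10 µM HPTE in all 3 pairs of FSH cells and higher in all 3 pairs of basal cells, a difference between effects of -4.04, which was not tested because the gene was chosen for its change.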

How the results depend on the processing

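Of 2579 values over 155 single results under the alternatives, 2252 kept their side of the threshold or moved by less than the replicate SD, 295 lost a call, 22 gained one, 10 moved further and 0 changed sign. Counts of calls changed more. With the array number as a block, the calls over the tested members in 24 comparisons numbered 12 in place of 4, those of the pathway list for HPTE within a stimulus 41 in place of 22, for FSH against cAMP 26 in place of 15, and for the interactions 17 in place of 8. Calls over all probe sets rose with the block too. They were 17.2% in place of 8.45% for 10 µM HPTE in FSH cells and 12.8% in place of 5.59% for FSH against cAMP at 5 µM. For the effect of 10 µM HPTE in FSH minus basal cells they were 6.77% in place of 2.17%. With the block and without the arrays that looked exchanged, the counts of calls were 17 for the members, 48 for HPTE, 33 for FSH against cAMP and 20 for the interactions. Without those arrays alone the members had 7 calls, of which 6 were of Rarb and 1 was that of Aldh1a1 at 1 µM, a comparison without those arrays that keeps its value from all arrays, and leaving out dim probe sets, which removes Rarb, left them with 1. Leaving out replicates gave 0 to 5 calls for the members, 7 to 17 for stimuli without HPTE (18 with all arrays), 17 to 31 for stimuli at 1, 5 and 10 µM (29), 8 to 22 for HPTE within a stimulus, 12 to 16 for FSH against cAMP and 0 to 10 for the interactions. The lowest counts came without all number 1 arrays (members 0, HPTE 8, interactions 0), and without the single FSH array number 3 at 0 µM the members had 1 call and HPTE 14. Without basal array number 1 at 0 µM, or without all number 2 arrays, the stimuli without HPTE had 11. Without all number 3 arrays the counts were 18 for stimuli at 1, 5 and 10 µM, 10 for HPTE, 2 for the interactions and 2 for the members. The interactions had 5 without any 1 of 4 arrays, number 1 of FSH or number 3 of basal cells at 0 µM and number 3 of FSH or number 2 of basal cells at 10 µM. Of 96 single calls, 50 were kept without any single array. Beyond the values printed with the block, it changed no other call of a member, or of a named gene where its value is given, and moved no other count of a comparison by over 1.5 times. The cause of these changes was not tested. Low signal limits Rarb and Rbp4, both dim, and also Crabp1 and Aldh1a2, which lay below the median of every array. In addition, 3 arrays a group limit every count.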
